A study of Mus musculus with 3 samples.

Results

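Toll-like receptors were followed through the immune cells of neuropathic mouse nerve, 1 cell class and 1 library at a time. The set was named by gene and comprised 9 of the 32285 genes in the matrices, namely the receptors Tlr1, Tlr2, Tlr3, Tlr4, Tlr7, Tlr9 and Tlr13, the chaperone Unc93b1 and the adaptor Myd88. All 9 were detected, with 296 UMIs (Tlr4) to 26885 UMIs (Unc93b1) over all cells that passed the quality limits, and 8 passed the filter on low counts in the comparison of classes. Tlr4 did not pass it and was left untested in the main fits.

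Toll-like receptors are innate sensors of microbial and self molecules. Some sit on the cell surface and bind lipids and lipoproteins, and others reside in endosomes and bind nucleic acids. UNC93B1 carries the endosomal receptors out of the endoplasmic reticulum, and MYD88 links every receptor of the family except TLR3 to kinases that activate NF-kappaB and interferon regulatory factors. Macrophages, monocytes, dendritic cells and B cells are known to carry different sets of these receptors.

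The sciatic nerves came from NOD.AireGW/+ mice with spontaneous neuropathy, and CD45+ cells were isolated from them. The study describes perfusion and collagenase digestion for flow cytometry. Whether the nerves of these libraries were treated in that way was not given in the sources used here. The NOD background is prone to autoimmunity, and the Aire change is a partial loss of function in a gene needed for tolerance. Transcripts were captured from the 5′ end on a 10x Genomics platform and counted as UMIs (unique molecular identifiers, each marking 1 captured transcript). All samples belonged to 1 group of 3 libraries, of which libraries 1 and 2 held 1 mouse each and library 3 held 2 pooled mice. The data hold no unaffected nerve among the samples analysed here, so classes were compared within diseased nerve and no effect of disease was measured. The animal methods of the study name female mice, and the age of these animals was not given in the sources used here.

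Cells were assigned to 8 classes by UMIs of marker genes, none of which is a receptor, chaperone or adaptor of the pathway. Of 3848, 8256 and 1533 cells kept in libraries 1 to 3, with medians of 3956, 4632.5 and 1726 UMIs, 78.4%, 75.7% and 66.3% were assigned. Over the 3 libraries there were 2086 macrophages, 207 monocytes, 155 type 1 and 32 type 2 conventional dendritic cells (cDC1 and cDC2), 61 mature dendritic cells, 163 plasmacytoid dendritic cells, 745 B cells and 6836 T cells. Library 2 supplied 99.3% of the macrophages, and library 1 supplied 10 and library 3 supplied 5. Every marker of a class had a UMI in each of its sums of at least 10 cells, except 1 of the 8 for mature dendritic cells. Plasmacytoid cells also carried cDC2 markers, at 983 to 1142 CPM against 1769 CPM in cDC2 (CPM, the UMIs of a gene for each 1000000 UMIs of its class in a library), and Cd4 at 109 to 112 CPM. B cell sums held plasma cell transcripts, whose 5 markers summed to 17988, 24998 and 579 CPM in libraries 1 to 3. Pairs of libraries shared 7 to 35 cell barcodes.

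The stretches upstream of the RefSeq starts of 3 of the genes are shown because their products stand at different points of the pathway. All 3 genes were also higher in the mean of macrophages and monocytes than in the mean of B and T cells, as described below. In Tlr9, however, monocytes overlapped with B cells. They were taken from RefSeq (GRCm38.p6), read 5′ to 3′ on the strand of the gene, and exclude bases that lie in an exon of GENCODE vM21. Capitals mark motifs found by letter in the 250 bases before the RefSeq start, on either strand. The Tlr2 stretch lies at chr3:83841768-83841858, minus strand, and its capitals are a pair of overlapping matches to the kappaB pattern (GGG, any 5 bases, CC), the first of which begins 173 bases before the start.
Tlr2: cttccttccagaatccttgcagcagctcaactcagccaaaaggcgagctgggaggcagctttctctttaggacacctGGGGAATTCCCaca
The Tlr9 stretch lies at chr9:106222348-106222597, plus strand, and its capitals match the AP-1 pattern TGANTCA, beginning 58 bases before the start.
Tlr9: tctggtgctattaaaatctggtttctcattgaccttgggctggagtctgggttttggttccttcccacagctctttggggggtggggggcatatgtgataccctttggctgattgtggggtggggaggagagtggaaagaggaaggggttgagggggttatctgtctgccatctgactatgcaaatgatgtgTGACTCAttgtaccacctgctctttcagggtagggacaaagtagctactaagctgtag
The Myd88 stretch lies at chr9:119340042-119340268, minus strand, and its capitals match the interferon-stimulated response element pattern (GAAA, any 2 bases, GAAA), beginning 40 bases before the RefSeq start. It lies within the gene as drawn by GENCODE vM21 (chr9:119335934-119341411), outside its exons. The GENCODE gene begins further upstream than the RefSeq start used here.
Myd88: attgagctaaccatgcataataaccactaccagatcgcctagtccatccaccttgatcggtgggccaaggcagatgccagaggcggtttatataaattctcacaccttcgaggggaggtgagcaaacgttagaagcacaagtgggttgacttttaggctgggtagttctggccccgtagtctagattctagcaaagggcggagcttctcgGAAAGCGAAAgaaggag
Of 32851 RefSeq promoter windows of the same 250 bases, 45.8% held the kappaB pattern, 6.75% the AP-1 pattern and 2.98% the interferon response pattern. A match says that these letters occur in the window and does not show binding. The same search found none of the 5 patterns tested in the Tlr13 window. The 2 others were the PU.1 site GAGGAAGT, present in 2.44% of windows, and the composite GGAA, any 2 bases, GAAA, present in 2.30%. The Tlr3 window, not printed here, held 2 kappaB matches, and a Tlr1 window held 1 PU.1 match.

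In GRCm38 coordinates, which are those of mm10, Tlr2 is a protein-coding gene on the minus strand at chr3:83836272-83841767. It encodes the receptor for bacterial lipoproteins. Macrophages held Tlr2 at 734 CPM in library 1 (46 UMIs in 10 cells) and at 144 CPM in library 2, while the 5 macrophages of library 3 had 0 UMIs. In monocytes its level was 527, 177 and 83.5 CPM in libraries 1 to 3. The 2 classes overlapped, and library 1 was the highest library in both. Every other class of at least 10 cells was lower than every monocyte sum, with cDC2 at 31 CPM in library 2, cDC1 at 6.52 and 7.98 CPM, and mature dendritic cells at 7.69 CPM. T cells had 1.91, 1.58 and 1.42 CPM and B cells 1.74, 1.71 and 0 CPM. None of the 163 plasmacytoid cells held a Tlr2 UMI. Monocytes, at 300 CPM over all libraries, were at least 97.6-fold higher than plasmacytoid cells taken at a floor of 3 counts. Such bounds, here and below, take the higher level as measured and leave out its counting error. The absence of Tlr2 UMIs in plasmacytoid cells depended on the gate. With 4 markers instead of 3 per gate, plasmacytoid cells averaged 6.53 CPM of Tlr2.

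Tlr1, on the minus strand at chr5:64924679-64933563, encodes the partner with which TLR2 recognises triacylated lipoproteins. Macrophages had 63.8 CPM in library 1, which rests on 4 UMIs, and 24.8 CPM in library 2. Monocytes had 21.6, 13.3 and 0 CPM, B cells 15.7, 2.14 and 7.33 CPM, and T cells 12.9, 5.69 and 4.27 CPM. Unlike Tlr2, the levels of Tlr1 in monocytes, B cells and T cells overlapped. Type 1 conventional dendritic cells (4.35 and 2.66 CPM) and plasmacytoid cells (2.01 and 2.19 CPM) had 2 to 4 UMIs in each cDC1 sum and 1 UMI in each plasmacytoid sum. Of these, cDC1 overlapped with T cells and plasmacytoid cells lay below every T cell sum. Within library 1, 55.6% of all Tlr1 UMIs were in T cells, whereas in library 2 macrophages held 48.4% and T cells 10%. Of the 31-base words in Tlr1 transcripts, 18.3% also occur in Tlr6, so counts of this pair are uncertain.

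Tlr4, on the plus strand at chr4:66827584-66930284, encodes the lipopolysaccharide receptor and had the fewest UMIs of the 9. Macrophages had 8.43 CPM in library 2 (130 UMIs) and 16.0 CPM in library 1 (1 UMI). Monocytes had 12, 8.33 and 0 CPM on 5, 5 and 0 UMIs. In cDC2 of library 2 the level was 10.3 CPM on 2 UMIs, between the 2 macrophage values. The cDC1 sums of libraries 1 and 2 had 0 and 3.32 CPM. B cells ranged from 0 to 4.79 CPM and T cells from 0 to 2.09 CPM. Over all libraries, 8.45 CPM in macrophages compared with 1.02 CPM in plasmacytoid cells, where 1 UMI was found, a ratio of 8.25 with an exact 95% counting interval from 1.45 to 328. Mature dendritic cells had 0 UMIs.

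**Figure D1:**
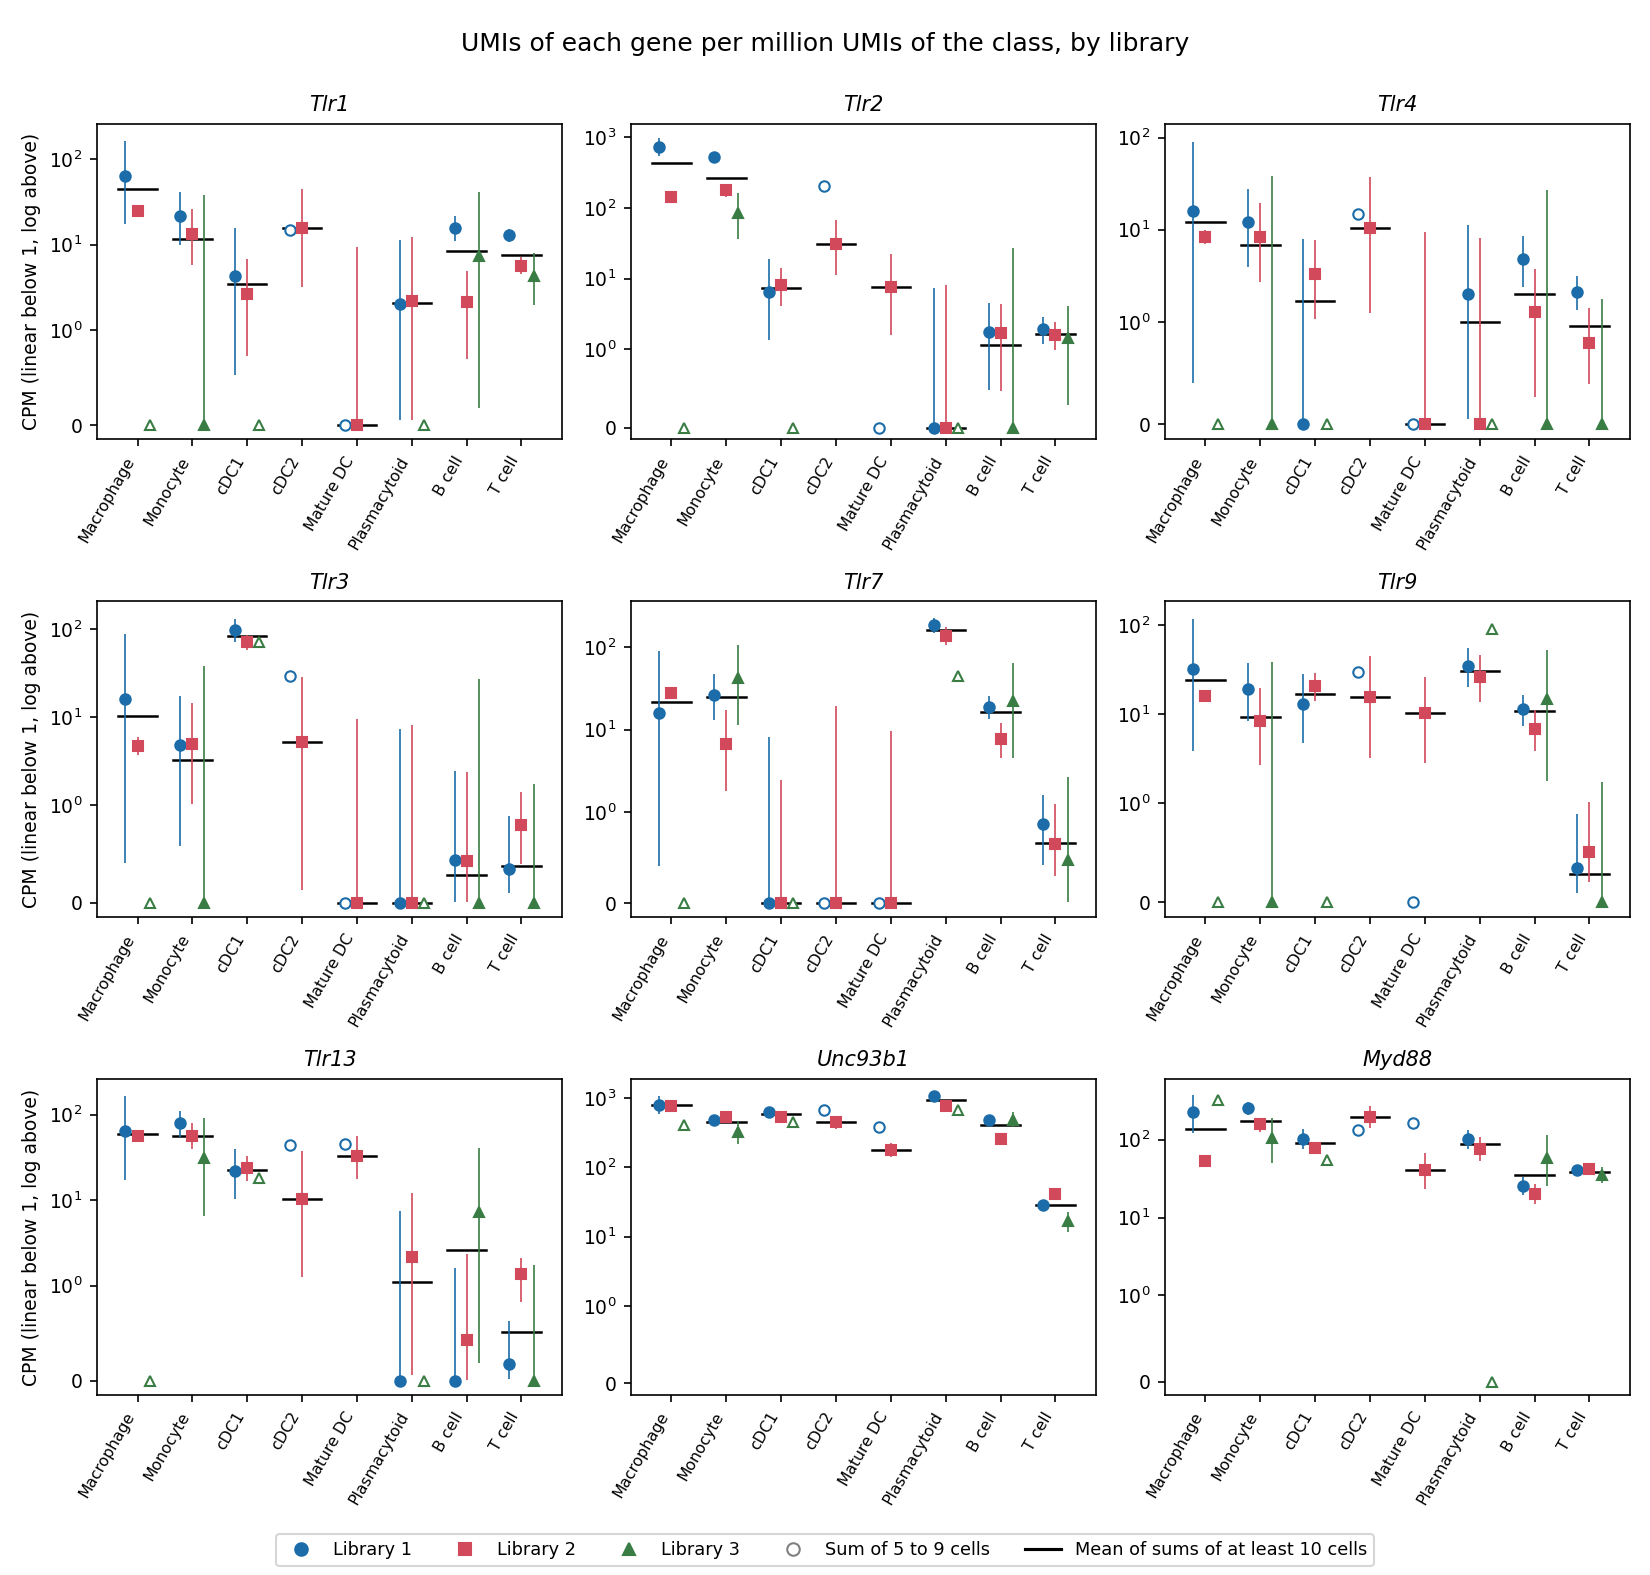
Level of each of the 9 genes, in CPM (vertical axis, linear below 1 and logarithmic above), in 8 cell classes (horizontal axis), with 1 point per library, exact Poisson 95% intervals on sums of at least 10 cells, open symbols for sums of 5 to 9 cells and a bar at the mean of the sums of at least 10 cells. Tlr2 is highest in macrophages and monocytes, Tlr3 in cDC1 (71.1 to 97.9 CPM), Tlr7 in plasmacytoid cells (138 and 183 CPM), and Unc93b1 is at least 179 CPM in every class except T cells (16.6 to 41.5 CPM).

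Among the endosomal receptors, Tlr3 was highest in cDC1 in both libraries with at least 10 of these cells. The gene lies on the minus strand at chr8:45395665-45411080, where an exon overlaps Gm45542 on the opposite strand, and encodes the receptor for double-stranded RNA. Type 1 conventional dendritic cells had 97.9 CPM in library 1 and 71.1 CPM in library 2, and the 7 such cells of library 3 had 72.2 CPM on 4 UMIs. Macrophages had 16.0 CPM in library 1, on 1 UMI, and 4.73 CPM in library 2, and monocytes had 4.80, 5.0 and 0 CPM. No other sum of at least 10 cells reached the lowest cDC1 value. B and T cells were at most 0.792 CPM in any library, and neither plasmacytoid nor mature dendritic cells had a Tlr3 UMI. Over all libraries, cDC1 were at 77.3 CPM, which is at least 25.1-fold higher than plasmacytoid cells, at least 11.9-fold higher than mature dendritic cells and 7.26-fold higher than cDC2 (interval 2.44 to 35.6, on 156 and 3 UMIs). In libraries 1 and 2, 55.6% and 34.9% of all Tlr3 UMIs came from cDC1, which made up 0.754% and 1.44% of the cells.

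Tlr7, on the minus strand at chrX:167304929-167330558, encodes a receptor for single-stranded RNA. Its highest level was in plasmacytoid cells, at 183 CPM in library 1 and 138 CPM in library 2, and 1 UMI was found in the 6 plasmacytoid cells of library 3. Monocytes had 26.4, 6.66 and 41.8 CPM, macrophages 16.0 (1 UMI) and 27.4 CPM, and B cells 18.7, 7.69 and 22.0 CPM. These 3 classes overlapped, and all their sums were below both plasmacytoid sums. T cells were at 0.474 to 0.870 CPM. No Tlr7 UMI was found in cDC1, cDC2 or mature dendritic cells of any library, and plasmacytoid cells were at least 107-fold higher than cDC1, at least 24.4-fold higher than mature dendritic cells and at least 14.9-fold higher than cDC2, the last bound being set by the 32 cells of that class.

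Tlr9, on the plus strand at chr9:106222598-106226883, encodes the receptor for unmethylated CpG DNA. Plasmacytoid cells had 34.2 and 26.3 CPM, macrophages 31.9 (2 UMIs) and 16.1 CPM, and cDC1 13 and 20.6 CPM. B cells had 11.3, 6.83 and 14.7 CPM, and monocytes 19.2, 8.33 and 0 CPM. Both plasmacytoid sums were above both cDC1 sums, macrophages overlapped with each of these classes, and B cells overlapped with monocytes. T cells, at 0 to 0.504 CPM, were below every sum of the other classes in which a Tlr9 UMI was found.

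Tlr13, on the plus strand at chrX:106143204-106160493, encodes a receptor for bacterial ribosomal RNA that humans lack. Monocytes had 79.1, 56.6 and 31.3 CPM and macrophages 63.8 (4 UMIs) and 56.6 CPM, and these classes overlapped. Mature dendritic cells had 33.3 CPM in library 2 and cDC1 had 21.7 and 23.9 CPM. Plasmacytoid cells were the lowest of the myeloid classes, with 1 UMI in 163 cells, and B cells had 0, 0.427 and 7.33 CPM on at most 1 UMI per library. The ratio of monocytes to plasmacytoid cells over all libraries was 61.4, with an interval from 10.7 to 2459.

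Unc93b1 lies on the plus strand at chr19:3935186-3949340, and its product escorts TLR3, TLR7, TLR9 and TLR13 to endosomes. Plasmacytoid cells had 1071 and 773 CPM, macrophages 798 and 753 CPM, and cDC1 633 and 523 CPM. Monocytes had 480, 527 and 324 CPM, B cells 485, 257 and 484 CPM, and mature dendritic cells 179 CPM in library 2. T cells were below all other classes, at 28.6, 41.5 and 16.6 CPM. When each cell was thinned to 1000 UMIs to set depth aside, Unc93b1 was found, as means over libraries, in 57.8% of plasmacytoid cells, 55.8% of macrophages, 50.4% of cDC1, 42.9% of B cells and 34.4% of monocytes, against 2.14% of T cells. The unthinned means were 91.3%, 95.8%, 98.7%, 75.4%, 70.6% and 7.40% in the same order. In library 2 the median depth before thinning was 2772 UMIs in T cells and 12342 UMIs in cDC1. Of cells below 1000 UMIs, 408 T cells, 53 macrophages, 27 B cells, 5 monocytes and 1 plasmacytoid cell were left out of the thinned shares.

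The same thinning gave Tlr2 in 60% of the 10 macrophages of library 1 and 13.4% of those of library 2. In monocytes it was found in 52.6%, 14.05% and 16.7% of cells in libraries 1 to 3, so that macrophages were not above monocytes in library 2, and T cells were at 0.123% to 0.178%. Unthinned means over libraries were 61.3%, 52.9% and 0.556%. Thinned Tlr7 shares were 13.4% in plasmacytoid cells, 1.64% in B cells and 0.0594% in T cells, and unthinned shares were 50.7%, 6.63% and 0.258%. Thinned Tlr3 was found in 7.69% of cDC1 and in 0.0296% of T cells, against 56.3% and 0.150% unthinned. Each of these leading classes was above the T cell share in every library of at least 10 cells. Thinned Tlr3 in macrophages was 10% in library 1, on 1 of 10 cells, and 0.446% in library 2.

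Myd88, on the minus strand at chr9:119335934-119341411 with an exon that overlaps Acaa1a on the opposite strand, encodes the adaptor that recruits IRAK kinases to the receptors. It was found in every class. Monocytes had 254, 157 and 104 CPM. Macrophages had 223 CPM on 14 UMIs in library 1 but 53.9 CPM in library 2, and cDC2 had 197 CPM in library 2. Conventional type 1 cells had 102 and 78.4 CPM and plasmacytoid cells 100.7 and 76.6 CPM. T cells were at 40.2, 41.4 and 35.1 CPM and B cells at 25.7, 20.1 and 58.6 CPM, and these overlapped with mature dendritic cells at 41.0 CPM. Thinned shares were 21.7% of the 23 cDC2 of library 2, and, as means over libraries, 11.6% of monocytes, 5.79% of plasmacytoid cells and 4.67% of cDC1. Macrophages were at 30% in library 1, on 3 of 10 cells, and at 5.05% in library 2. B cells were at 3.87% and T cells at 3.65%, and 0 of 47 mature dendritic cells held a UMI.

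**Figure D2:**
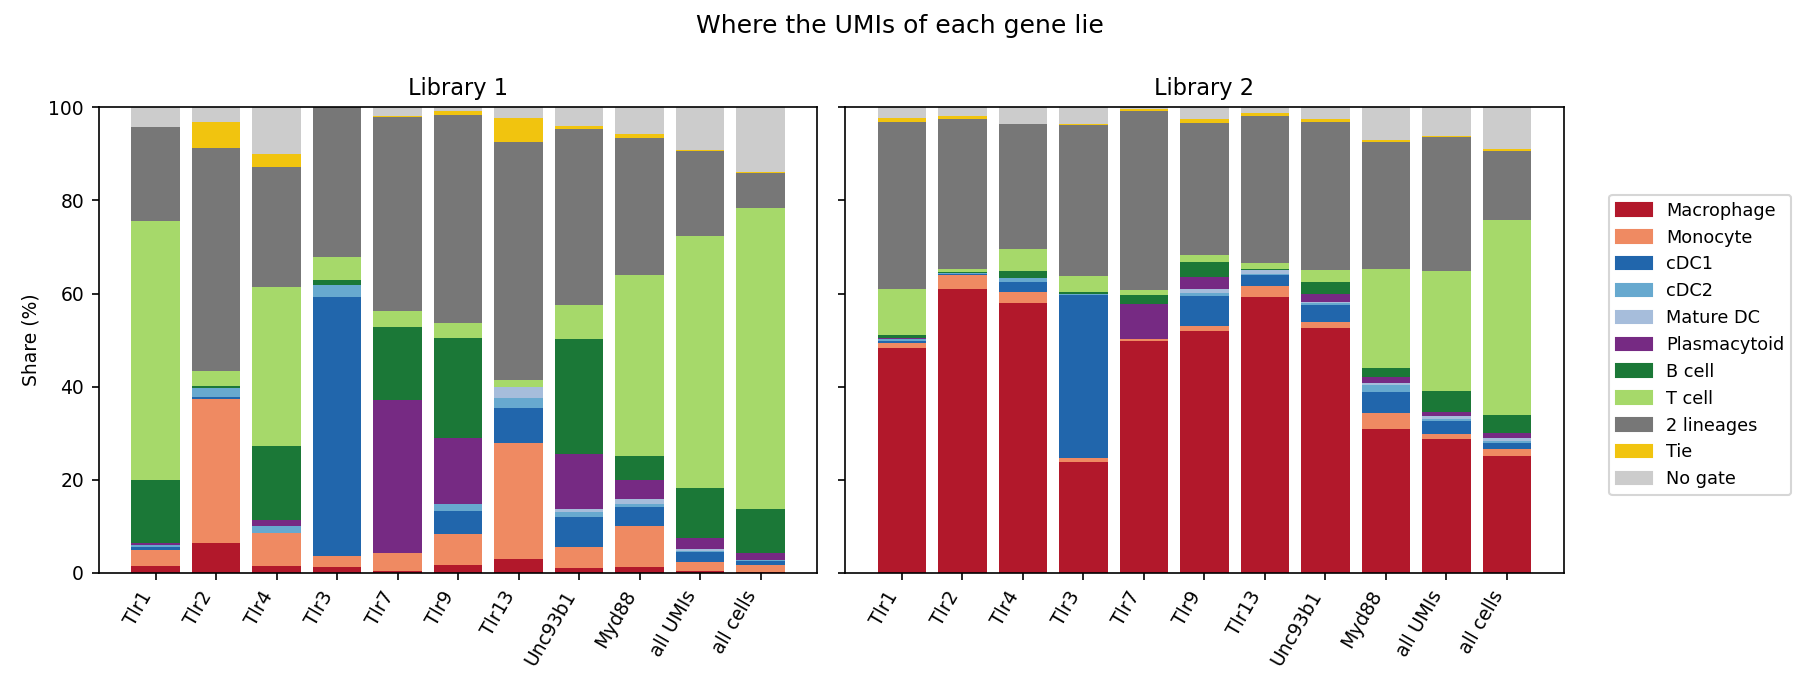
Share of the UMIs of each gene, and of all UMIs and all cells (horizontal axis), that lay in each cell class (percent, vertical axis), in libraries 1 and 2, with cells that met the gates of 2 lineages, tied cells and cells that met no gate in gray or yellow. In library 2 macrophages held 61.0% of Tlr2 and 59.3% of Tlr13 UMIs but 23.8% of Tlr3 UMIs, while they held 28.8% of all UMIs.

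Part of the signal could not be placed in a class. Cells that met the gates of 2 lineages held 26.7% (Tlr4) to 38.8% (Tlr7) of the UMIs of each gene and numbered 291, 1227 and 15 in libraries 1 to 3, with medians of 12073, 11165 and 7050 UMIs. They were left out of all classes, and whether they are doublets was not tested. In T cells, the 8 macrophage markers summed to 4.74 to 81.6 CPM, so that the low levels of myeloid receptors in T cells lie beside a low level of macrophage transcripts, and their part in those levels was not tested.

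The mean of macrophages and monocytes was then compared with the mean of B and T cells. All 8 genes tested were higher in the phagocyte mean. In this comparison 50.5% of the 9047 genes tested passed an adjusted p of 0.05, 24% higher and 26.5% lower. A mean that includes T cells does not place each phagocyte class above B cells. Monocytes overlapped with B cells in Tlr1, Tlr3, Tlr7, Tlr9 and Unc93b1. For Tlr9, monocytes had 0 to 19.2 CPM and B cells 6.83 to 14.7 CPM. Macrophages overlapped with B cells in Tlr7 and Myd88. edgeR's quasi-likelihood test was run on UMIs summed by class and library, with libraries as blocks, and p-values were adjusted over every gene by Benjamini-Hochberg. The log2 difference was 7.43 ± 0.32 (SE) for Tlr2 (adjusted p = 6.125e-12) and 6.67 ± 0.42 for Tlr13 (adjusted p = 2.336e-10). Tlr3, Tlr7 and Tlr9 were higher by 3.32 ± 0.66, 3.04 ± 0.34 and 2.93 ± 0.41. Unc93b1 was higher by 2.41 ± 0.22, Myd88 by 1.96 ± 0.23 and Tlr1 by 1.68 ± 0.33, the last with an adjusted p of 0.0003393 in edgeR. Without library 2, which held most of the macrophages, 5 of the 8 stayed past the threshold, and Tlr1 (1.16), Tlr3 (4.15) and Tlr7 (2.29) did not. The p-values rest on the spread of the sums that remains after the library blocks, estimated in 1 fit over all classes. Macrophages entered the fit with 2 libraries, and their value in library 1 rests on 10 cells. Library 3 came from pooled mice.

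Between macrophages and monocytes, 0 of the 8 genes passed the threshold in edgeR, where 4.22% of all genes did (2.17% higher, 2.06% lower), and 0 passed in DESeq2. Before adjustment 4 of the 8 had p under 0.05, namely Tlr1 (log2 difference 1.47 ± 0.48), Tlr7 (1.22 ± 0.43) and Unc93b1 (0.70 ± 0.31), which were toward macrophages, and Myd88 (-1.05 ± 0.36), which was toward monocytes. Their edgeR adjusted p-values were 0.0956, 0.143, 0.258 and 0.119. The Tlr7 difference turned to -1.22 without library 2. Tlr2, Tlr3 and Tlr13 differed by less than their SE.

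**Figure D3:**
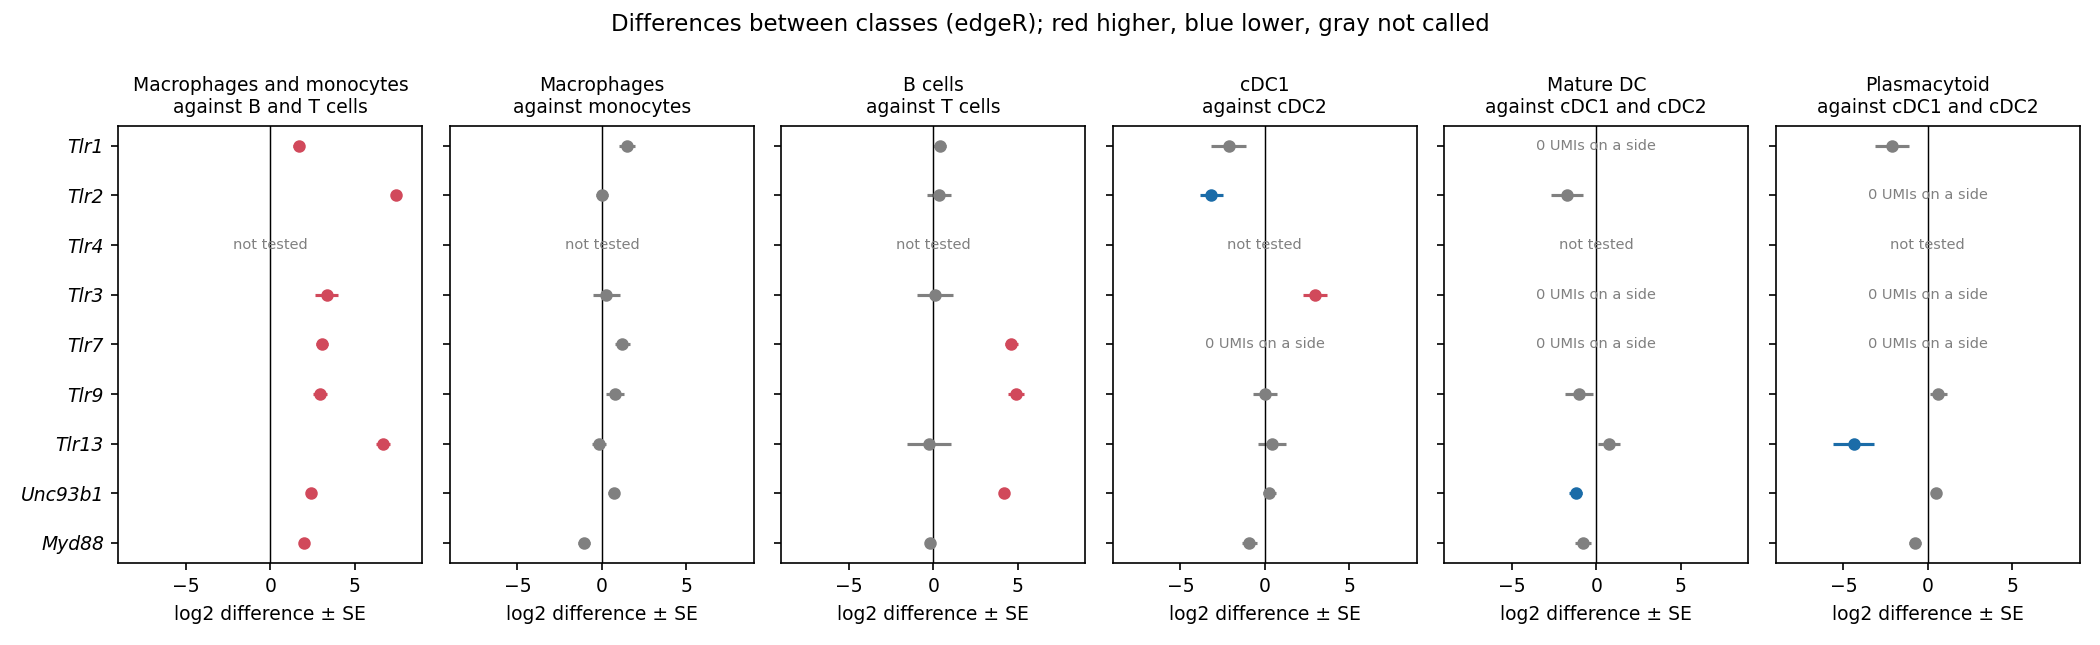
Difference of each gene between cell classes (log2 scale, horizontal axis, ± SE) in 6 comparisons by edgeR's quasi-likelihood test, with genes past an adjusted p of 0.05 in red (higher) or blue (lower), others in gray, and no value drawn where a class on either side had 0 UMIs or the gene was not tested. All 8 tested genes are red in the first panel, and none is colored in the second.

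Within dendritic cells the receptors divided by subset. Type 1 conventional cells were higher than cDC2 in Tlr3, by 2.96 ± 0.70 on the log2 scale (edgeR adjusted p = 0.0104), and lower in Tlr2, with a log2 difference of -3.16 ± 0.69 (edgeR adjusted p = 0.00444). These were 2 calls among 8 genes tested, against 3.79% of all 7922 genes (1.26% higher, 2.52% lower). The fit used sums of at least 5 cells, since cDC2 reached 10 cells only in library 2, and 6 cDC2 of library 1 held 205 CPM of Tlr2 against 31 CPM in library 2. The Tlr2 call was lost without library 1 (log2 difference -1.85, edgeR adjusted p = 0.483) and the Tlr3 call without library 2 (1.94, edgeR adjusted p = 0.661), the Tlr3 call also in DESeq2, and without blocks for libraries neither passed. Monocyte markers moved with Tlr2, at 1188 and 527 CPM in cDC2 of libraries 1 and 2 against 265, 150 and 235 CPM in cDC1, with 5 and 4 of the 8 found in cDC2 and Vcan, Chil3 and Hp at 0 in both. Their part in the differences of Tlr2, and of Cd14 and Il1b below, was not tested. Myd88 was at 132, 197 and 194 CPM in cDC2 of libraries 1 to 3, on 9, 38 and 4 UMIs. In cDC1 it was at 102, 78.4 and 54.2 CPM, on 47, 118 and 3 UMIs. The 3 cDC2 of library 3 were too few for the fit. Exact counting intervals of the 2 classes overlapped in libraries 1 and 3 but not in library 2. The log2 difference of Myd88, -0.93 ± 0.45, was not past the edgeR threshold (adjusted p = 0.351).

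Plasmacytoid cells differed from the mean of cDC1 and cDC2 in 4 of 8 genes, where 19.7% of all genes did (11.6% higher, 8.07% lower). Tlr7 was higher (edgeR adjusted p = 5.424e-10), and Tlr2, Tlr3 and Tlr13 were lower (edgeR adjusted p = 0.000219, 0.000269 and 0.00697). The bounds for Tlr7 and Tlr3 are given above, since 1 side had no UMI. The Tlr3 bound is against cDC1. In cDC2 the 3 Tlr3 UMIs (10.6 CPM, exact interval 2.19 to 31.1) overlapped with plasmacytoid cells, whose upper limit was 3.78 CPM. For Tlr2 over all libraries, cDC1 had 7.43 CPM (exact interval 4.16 to 12.3) and plasmacytoid cells 0, with an upper limit of 3.78 CPM. Against the floor of 3 counts in plasmacytoid cells, cDC1 were 2.42-fold and cDC2 23.1-fold higher, leaving out their own counting error. Of the 20 Tlr2 UMIs in cDC2, 14 came from 6 cells of library 1. The log2 difference of Tlr13 was -4.40 ± 1.2. Tlr9 differed by 0.63 ± 0.51, Unc93b1 by 0.49 ± 0.30 and Myd88 by -0.76 ± 0.38, none past the threshold. When cells that met the plasmacytoid gate competed with all myeloid classes by their share of markers found, Tlr2 differed by -0.20 (edgeR adjusted p = 0.875) and Tlr13 by -1.04 (edgeR adjusted p = 0.35), and the Tlr13 call was also lost without library 1 (-3.04, edgeR adjusted p = 0.151). Without library 2, Tlr13 did not pass the filter on low counts and had no test. Tlr7 and Tlr3 kept their calls in all 11 alternatives run.

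Mature dendritic cells, which carry Ccr7, had lower Unc93b1 than cDC1 and cDC2, at 374 CPM in 7 cells of library 1 and 179 CPM in library 2. The log2 difference was -1.23 ± 0.38 (edgeR adjusted p = 0.0410). Tlr3 was also lower than the mean of cDC1 and cDC2 (edgeR adjusted p = 0.0106), with 0 UMIs in 61 mature cells. Against cDC2 alone, however, mature cells overlapped in Tlr3. Over all libraries cDC2 had 3 UMIs (10.6 CPM, exact interval 2.19 to 31.1), and the upper limit in mature cells was 8.01 CPM. Unc93b1 and Tlr3 were 2 calls among 8 genes, against 6.94% of all genes (5.16% higher, 1.78% lower). Neither call was kept without library 1 (edgeR adjusted p = 0.200 and 0.129) or without library 2 (0.543 and 0.493), and the Unc93b1 call was not kept without the block or without the filter on low counts.

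B cells were higher than T cells in 3 of 8 genes, against 28% of all genes called, 12.2% higher and 15.9% lower. These were the nucleic acid receptors Tlr9 (log2 difference 4.89 ± 0.50, edgeR adjusted p = 2.527e-07) and Tlr7 (4.61 ± 0.40, edgeR adjusted p = 5.837e-08), together with their chaperone Unc93b1 (4.17 ± 0.30, edgeR adjusted p = 3.303e-09). All 3 were higher in B cells in each of the 3 libraries and passed in all 15 alternatives. Tlr1, Tlr2, Tlr3, Tlr13 and Myd88 differed by less than their SE. The plasma cell transcripts in the B cell sums of libraries 1 and 2 lie beside these values, and their part was not tested. In library 3, with 579 CPM of those markers, B cells had 484 CPM of Unc93b1 against 16.6 CPM in T cells.

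Among T cells, Tlr1 differed between CD4 and CD8 cells and was the only receptor with enough UMIs to test. CD4 T cells had 21.4, 6.14 and 7.27 CPM of Tlr1 in libraries 1 to 3, on 65, 24 and 3 UMIs. CD8 T cells had 6.05, 3.42 and 1.64 CPM, on 30, 16 and 1 UMIs. The CD4 value was higher in each library, but exact counting intervals overlapped in libraries 2 and 3. The lowest CD4 value, 6.14 CPM, lay just above the highest CD8 value, 6.05 CPM. The log2 difference was 1.35 ± 0.33 (edgeR adjusted p = 0.0156), and 3 of the 9 genes could be tested, against 14.4% of 10002 genes called (7.51% higher, 6.85% lower). The call was lost without library 1 (0.88, edgeR adjusted p = 0.528), with 4 markers per gate (1.02), in DESeq2 and without the block. Unc93b1 and Myd88 were not past the threshold, except Unc93b1 with 4 markers per gate (0.51, edgeR adjusted p = 0.0236).

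Other genes of the pathway were followed in a list of 62, made of further receptors, co-receptors and trafficking factors, adaptors, kinases and ubiquitin ligases, transcription factors, inhibitors and outputs. Between phagocytes and lymphocytes 55 could be tested, of which 31 were higher and 2 lower by edgeR, where 24% of all genes were higher and 26.5% lower, with a median log2 difference of 0.97 against -0.15 over all genes. Co-receptors and trafficking factors were higher in 10 of 12, among them Cd14, the lipopolysaccharide co-receptor (8.32 ± 0.51), Slc15a3, an endolysosomal peptide transporter (4.98 ± 0.23), and the endolysosomal proteases Ctsl (5.31 ± 0.30) and Lgmn (5.25 ± 0.32). Outputs were higher in 6 of 9, led by Ptgs2 (8.68 ± 0.73) and Il1b (6.24 ± 0.55). Kinases and ubiquitin ligases were higher in 5 of 13. The 2 genes that were lower were the inhibitors Sigirr (-2.32 ± 0.27) and Cyld (-0.68 ± 0.18).

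Between macrophages and monocytes, 3 of the 55 genes of the list were higher and 0 lower by edgeR, against 2.17% and 2.06% of all genes. These were Tlr12, a receptor for profilin (4.28 ± 0.75, edgeR adjusted p = 0.00313), Ctsl (1.55 ± 0.36) and the cathepsin Ctsb (1.51 ± 0.28). The macrophage sum of library 1 held 10 cells, and monocytes held 2 Tlr12 UMIs over all libraries. Between B and T cells, 15 of 55 were higher and 14 lower, against 12.2% and 15.9% of all genes. Cd180, a TLR4 homologue (5.75 ± 0.46), and its partner Ly86 (4.6 ± 0.46) led those higher in B cells, with Irak3, an inhibitor of the kinases below MYD88 (4.26 ± 0.38). The chemokines Ccl3 (-6.33 ± 0.85) and Ccl4 (-4.93 ± 0.62) led those lower. Hsp90b1, a chaperone on which many receptors of the family depend and which plasma cells make in quantity, was higher by 2.46 ± 0.47.

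Among dendritic cells, 13 of 49 genes differed between plasmacytoid cells and cDC1 and cDC2, 10 higher and 3 lower, against 11.6% and 8.07% of all genes. Ctsl was higher by 6.13 ± 0.43, with 1735 and 1582 CPM in the plasmacytoid cells of libraries 1 and 2, and Ctsb by 2.58 ± 0.31. Irf8, a transcription factor of plasmacytoid cells and cDC1, was higher by 1.81 ± 0.36. Il12a was at 105 and 164 CPM in plasmacytoid cells and had 0 UMIs in cDC1 and 2 in cDC2, and Cxcl10 was lower (-6.61 ± 0.82). Between cDC1 and cDC2, 2 of 49 were higher (Cd36, 4.28 ± 0.96, and Irf8, 1.81 ± 0.50) and 6 lower, against 1.26% and 2.52% of all genes. Those lower were Nfkbiz (-4.97 ± 0.63), Cd14 (-4.08 ± 0.77), Cxcl10 (-3.40 ± 0.61), Nfkbia (-2.65 ± 0.50), Tnfaip3 (-2.26 ± 0.47) and Il1b (-2.0 ± 0.58). In mature cells, 5 were higher and 2 lower, against 5.16% and 1.78% of all genes, and Il12b was at 74.9 and 756 CPM in libraries 1 and 2. Between CD4 and CD8 T cells 44 could be tested, with 13 higher, led by Slc15a3 (1.78 ± 0.37) and Nfkbiz (1.61 ± 0.11), and 4 lower, led by Ccl4 (-1.71 ± 0.14) and Ccl3 (-1.63 ± 0.12), against 7.51% and 6.85% of all genes. Phagocyte transcripts were present in both T cell sums. Macrophage markers summed to 8.57, 89.3 and 2.42 CPM in CD4 cells of libraries 1 to 3 and to 6.65, 65.5 and 3.28 CPM in CD8 cells. Monocyte markers summed to 25.1, 41.5 and 9.69 CPM in CD4 cells and to 30.8, 19.3 and 9.83 CPM in CD8 cells. Cd14 was at 5.60, 23.5 and 0 CPM in CD4 cells and 2.02, 12 and 3.28 CPM in CD8 cells. These lay higher in CD4 cells of library 2, and their part in the differences of the list was not tested.

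**Figure D4:**
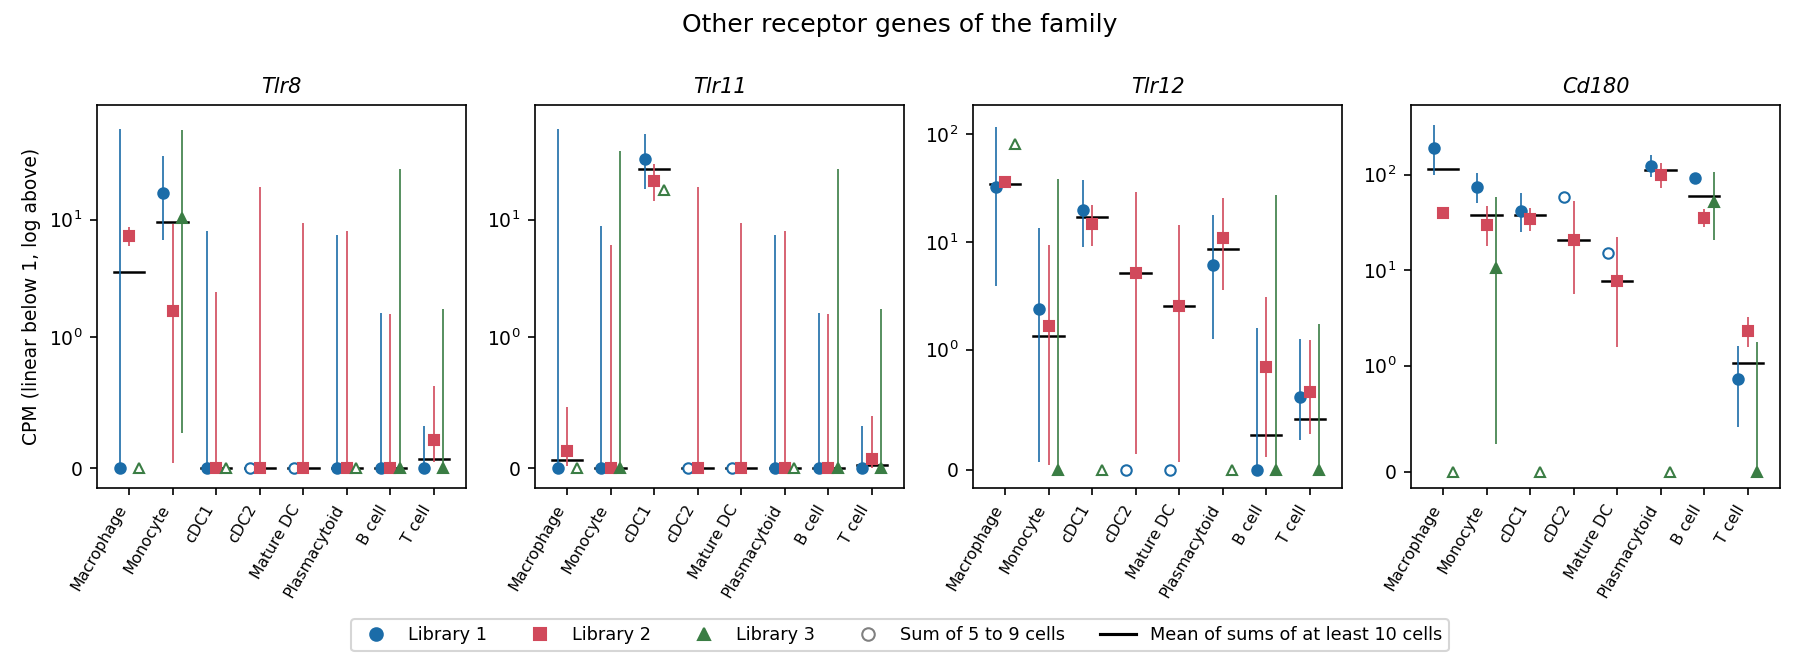
Level of 4 further genes of the receptor family, in CPM (vertical axis, linear below 1 and logarithmic above), by cell class (horizontal axis) and library, with exact Poisson 95% intervals on sums of at least 10 cells and a bar at their mean. Tlr11 is found in cDC1 (32.6 and 21.3 CPM), and Tlr12 is highest in macrophages (31.9 CPM in the 10 cells of library 1 and 36.2 CPM in library 2). Cd180 is above 10 CPM in every macrophage, monocyte, plasmacytoid, cDC1 and B cell sum of at least 10 cells.

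Further receptors of the family were given by their levels. Tlr11, which senses the same profilin ligand as Tlr12, had 48 UMIs in cDC1, 2 in macrophages, 1 in T cells and 0 in the other 5 classes, so that cDC1 were at least 37.8-fold higher than B cells and 184-fold higher than macrophages (interval 48.3 to 1565). Tlr12 was at 31.9 and 36.2 CPM in macrophages of libraries 1 and 2, the first from 10 cells with 62658 UMIs of all genes. It was at 19.6 and 14.6 CPM in cDC1 and 6.04 and 10.9 CPM in plasmacytoid cells. Tlr8 was found in monocytes (16.8, 1.67 and 10.4 CPM on 7, 1 and 1 UMIs) and in macrophages of library 2 (7.26 CPM), and Tlr5 in plasmacytoid cells at 8.05 and 13.1 CPM on 4 and 6 UMIs. Tlr6 had at most 9.59 CPM in any sum.

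The genes whose levels most resembled those of each receptor were sought among 4647 candidates over 17 sums of library and class, as the Pearson correlation of log2(CPM + 1) centred by library. Candidates averaged at least 50 CPM in some class, and gate markers were left out. The sums of a library share its mice and depth, so these correlations are descriptions. Tlr2 was most like Igsf6 (r = 0.977), Msrb1 and Osm (both 0.97), and Tlr13 most like Pdlim4 (0.962) and Aif1 (0.946). Tlr3 was nearest to Sult1a1 (0.883), Tlr7 to Plaur (0.903), and Tlr9 to Cd180 (0.877) and Fgd2 (0.858). Unc93b1 was closest to Lyn (0.978), Aldh2 (0.969) and Pik3ap1 (0.965), and Myd88 to Ist1 (0.949) and Picalm (0.942). The nearest genes were less alike for Tlr1 (Arid5b, 0.813) and for Tlr4, where the heat shock genes Hspa1a (0.841) and Hspa1b (0.832) were among the nearest.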

How the data were processed

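Single-cell 5′ gene expression of isolated sciatic nerve CD45+ cells was analysed in 3 libraries of 1 group. The authors deposited raw UMI count matrices, made with Cell Ranger 5.0.1 (library 1) or 6.1.2 (libraries 2 and 3) on mm10, and the counting strand was not given in the sources used here. Library 1 came without a gene list of its own and took the row order of the others, against which its row totals had Spearman correlations of 0.950 and 0.929 (0.362 and 0.321 when shifted by 1 row).

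Cells with at least 300 UMIs, at most 5000 genes and at most 20% mitochondrial UMIs were kept, which removed 54, 42 and 0 cells by genes and 24, 13 and 0 by mitochondrial share. A class needed UMIs from at least 3 of its markers. Cells that met the gates of 2 of the T, B, plasmacytoid and other myeloid lineages were left out, which is how doublets were treated, since no doublet caller was run. As an exception, chosen after the levels had been seen, cells that met the plasmacytoid and a cDC gate were kept as plasmacytoid where that share of markers was larger. Other myeloid cells took the class with the larger share, and ties were left out.

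UMIs were summed by library and class (17 sums of at least 10 cells, 62658 to 15428942 UMIs) and fitted with edgeR 4.0.16 in R 4.3.3, using TMM, filterByExpr, library as a block because a library's classes come from the same mice, and Benjamini-Hochberg adjustment. The 3 comparisons with cDC2 or mature dendritic cells used sums of at least 5 cells, because these classes reached 10 cells in library 2 alone, a change made after the data were seen. Calls were made at an adjusted p of 0.05, over 7 comparisons with 51 tests of the 9 genes. DESeq2 1.42.0 and other settings were alternatives. The fits were also run on simulated counts with known changes. Those counts held no library effects and no other class differences, so that run does not show how the fits behave on the real sums. Intervals are exact Poisson or Clopper-Pearson at 95% and cover counting error only, and the floor for a class without UMIs was 3 counts over its pooled libraries. Shares of cells were computed with scipy 1.17.1 after thinning to 1000 UMIs.

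The 9 genes, the marker lists and the list of 62 pathway genes were chosen with earlier results of these data known, so none of them is independent evidence. Of the pathway list, the up to 6 genes with the largest differences in each direction per comparison were eligible for naming, among those called and changed the same way in every library. Other receptors of the family and Il12a in plasmacytoid and Il12b in mature cells were given with their levels.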

Additional observations from a re-analysis of the deposited data

How the results depend on the processing

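Of the log2 differences of the 9 genes that exceeded their SE, 413 values under the alternatives kept their direction and side of the threshold, 21 lost a call, 4 gained one and 4 turned sign. Differences below their SE were not followed, a limit set after the alternatives had been run. The higher levels of all 8 genes in phagocytes fell to between 5 and 8 calls when a library was left out, with 5 without library 2. Between macrophages and monocytes 1 gene was called without the filter on low counts (Tlr1) and 1 with 4 markers per gate (Myd88), and Tlr7 ranged from -1.22 to 1.64 when a library was left out. For cDC1 against cDC2 the calls were 0 without the replicate block, 1 with DESeq2 (Tlr2) and 1 to 2 when a library was left out. For mature cells they were 1 without the block, 1 without the filter and 0 to 2 when a library was left out, where Myd88 ranged from -1.34 to 0.40. Plasmacytoid calls fell to 2 when those cells competed by share of markers with all myeloid classes, an alternative chosen after seeing the data. For CD4 against CD8 T cells the calls were 0 without the block, 0 with DESeq2 and 0 to 1 when a library was left out, and Unc93b1 ranged from -0.15 to 0.43 there and was -0.12 with 2 markers per gate, also chosen after seeing the data. The causes were not tested. The block is the library, whose classes share mice, and leaving it out changed no other count of calls among the 9 genes by over 1.5 times.

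The class with the highest level stayed the same for 8 of 9 genes with 4 markers per gate and for 7 of 9 without cells holding T or B lineage UMIs. The class with the highest share of cells stayed the same for 6 of 9 genes when thinned to 2000 UMIs and for 4 of 9 without thinning. Counts over all genes moved by more than 1.5 times as follows. Without the block they were 43 in place of 382 for macrophages against monocytes, 1601 in place of 2536 for B against T cells, 154 in place of 300 for cDC1 against cDC2, 286 in place of 550 for mature cells and 254 in place of 1436 for CD4 against CD8. DESeq2 called 220 for macrophages against monocytes and 826 for CD4 against CD8. Without the filter, 717 genes were called for macrophages against monocytes and 3827 for B against T cells, where scaling by library totals gave 4093. Plasmacytoid competition by share gave 510 for cDC1 against cDC2. Without library 2 the counts were 57 for macrophages against monocytes, 1680 for B against T cells, 1886 in place of 4568 for phagocytes against lymphocytes, 136 for cDC1 against cDC2, 87 for mature and 730 in place of 1560 for plasmacytoid cells. Without library 1 they were 1579 for B against T cells, 975 for plasmacytoid cells and 704 for CD4 against CD8.

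Tlr4 had too few UMIs to be tested in the main fits. With 4 markers per gate, and without the filter on low counts, Tlr4 was tested, and all 9 genes were called higher in phagocytes than in lymphocytes. Levels of macrophages rest on library 2, and those of cDC2 and mature cells on 32 and 61 cells. The settings with sums of at least 20 cells or without lymphoid lineage UMIs gave values in 2 comparisons each, and 4 markers per gate in 4, because too few sums were left elsewhere.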
